A study of Mus musculus with 24 samples.

Results

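Rp1 and 6 other genes lie near Sox17 on mouse chromosome 1, and their transcripts were followed in brain endothelium with and without Sox17. The members were the protein-coding genes within 1 Mb of Sox17 that are named Xkr4, Rp1, Mrpl15, Lypla1, Tcea1, Rgs20 and Atp6v1h, which is 7 of the 45468 annotated rows. The window held 8 protein-coding rows beside Sox17, and the eighth, Gm37988, had 0 counts in all 24 libraries. Messenger RNA was read in freshly isolated brain endothelium, selected with CD31 beads after removal of CD45-positive leukocytes, at the embryonic stage E15.5, at the postnatal stages P5 and P9 and in the adult.

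Each stage had 3 wt and 3 KO libraries, described in the labels as independent biological replicates, and all 8 groups carried Sox17 flox/flox alleles and received tamoxifen. KO libraries came from animals that also carried Cdh5(PAC)-CreERT2, a tamoxifen-activated Cre recombinase under an endothelial cadherin promoter, and wt libraries from animals without it. Loss of Sox17 and the presence of the recombinase therefore cannot be told apart in any KO comparison. For E15.5, each pregnant female was injected 2 times with 1 mg, first at 11.5 and again at 13.5 days of gestation. P5 and P9 pups received 100 μg on postnatal day 1. Adults received 4 injections of 1.5 mg at 6 weeks of age, 1 week before harvest. One dissociation kit served E15.5 and P5 and another served P9 and adult, so stage cannot be told apart from kit or tamoxifen schedule where these differ.

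Sox17 encodes a transcription factor of the SoxF family that acts in endothelial, and mainly arterial, specification. Genes that lie side by side can share regulatory DNA and transcribed territory, and a conditional allele can alter the surroundings of the gene it deletes, so the neighbours of a floxed gene are a common check in such designs. The neighbours here have unrelated textbook roles. Rp1 encodes a microtubule-associated protein with doublecortin domains that is needed for the outer segments of photoreceptors, and it is a retinitis pigmentosa gene. Xkr4 belongs to the XK-related family of membrane proteins that move phospholipids between membrane leaflets. Mrpl15 is a protein of the large subunit of the mitochondrial ribosome, and Lypla1 is an acyl-protein thioesterase that removes palmitate from proteins. Tcea1 is the elongation factor TFIIS, which restarts stalled RNA polymerase II. Rgs20 speeds the GTPase step of G protein alpha subunits, and Atp6v1h is a subunit of the proton pump of acidic organelles, the V-ATPase.

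On build mm10 of chromosome 1, Sox17 occupies 4490931 to 4497354 on the minus strand. Rp1 (4290846 to 4409241, minus strand) is the nearest protein-coding gene, and it lies downstream of Sox17 on the same strand, with a gap of 81.7 kb from the end of Sox17 and 88.1 kb between the start sites. Xkr4 (3205901 to 3671498, minus strand) lies farther downstream, at a gap of 819.4 kb. The other 5 lie upstream of Sox17. They are Mrpl15 (4773206 to 4785739, minus strand, gap 275.9 kb), Lypla1 (4807788 to 4848410, plus strand, 310.4 kb), Tcea1 (4857814 to 4897909, plus strand, 360.5 kb), Rgs20 (4909576 to 5070285, minus strand, 412.2 kb) and Atp6v1h (5070018 to 5162529, plus strand, 572.7 kb). Rgs20 and Atp6v1h overlap head to head, at their start sites, on opposite strands, and the libraries were strand-specific per the labels. Gm37988 spans from Lypla1 into Tcea1 on their strand, and how reads in exons it shares with them were counted is not given in the sources used here.

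The libraries held 12301779 to 19830600 counts each, and a count of 0 in 1 library allowed up to 0.151 to 0.244 CPM of its unadjusted total, a floor of 3 counts that covers counting error only. All other CPM values are counts scaled to library sizes after TMM adjustment. For the 17159 genes whose mean count reached 10 in any group, a gene is said to be called, or to have risen or fallen, where the edgeR quasi-likelihood test gave an adjusted p under 0.05, adjusted over all of these. All 7 members and Sox17 were among the genes tested. Sox17 itself was 10.1%, 6.01%, 7.01% and 17.8% of its wt CPM in KO at E15.5, P5, P9 and adult. The adult KO libraries held 57.3, 22.5 and 78.2 CPM of Sox17, against 274 to 318 CPM in adult wt. The endothelial markers, 10 of 10, were detected in every group. In bulk RNA, fewer cells of a type and less RNA per cell cannot be told apart.

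Rp1 was the only one of the 7 neighbours called at every stage, and it was higher in all 12 KO libraries than in any wt library. At E15.5 the wt libraries held 1.39, 1.21 and 1.06 CPM of Rp1 and the KO libraries 15.8, 11.4 and 14.0 CPM. At P5 they held 1.59, 3.45 and 1.53 CPM in wt and 55.3, 65.4 and 61.2 CPM in KO. The lowest KO value at each of these stages lay far above the highest wt value. At P9 the wt libraries held 1.83, 1.81 and 1.79 CPM and the KO libraries 60.8, 58.3 and 57.1 CPM. In adults the wt libraries held 0.912, 0.274 and 0.971 CPM and the KO libraries 38.6, 43.9 and 39.4 CPM. The groups did not overlap at any stage, as was true of 8.35%, 15%, 40.7% and 10.9% of all genes at E15.5, P5, P9 and adult. The adult wt libraries had 12, 4 and 14 counts of Rp1 against 668, 655 and 503 in adult KO.

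The ratio of mean CPM, KO over wt, was 11.3 at E15.5, 27.7 at P5, 32.5 at P9 and 56.5 in adults. The fitted log2 fold changes of Rp1 were 3.49 ± 0.25 (SE; edgeR adjusted p = 1.5e-08) at E15.5, 4.77 ± 0.23 (6.3e-12) at P5, 5.01 ± 0.24 (9.6e-13) at P9 and 5.82 ± 0.27 (2.5e-12) in adults. Averaged over the stages it was 4.77 ± 0.12 (edgeR adjusted p = 5.1e-18), the smallest p and the largest fold of the 17159 genes. Leaving out any 1 library kept every stage's value between 3.37 and 6.11.

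**Figure D1:**
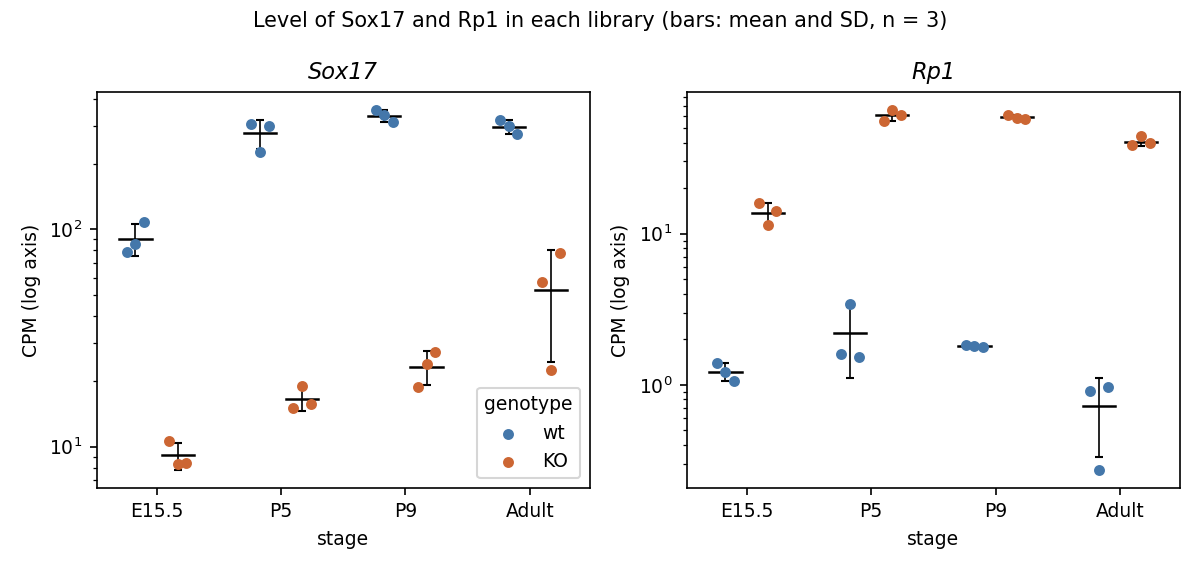
CPM of Sox17 (left) and Rp1 (right) in each of the 24 libraries by stage, on log axes; points are libraries, and bars give the mean and SD of 3. Rp1 lies between 11.4 and 65.4 CPM in KO and between 0.274 and 3.45 CPM in wt, while Sox17 moves the other way.

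By group the order of Rp1 levels was KO P5 (60.6 ± 5.03 CPM, SD, n = 3), KO P9 (58.7 ± 1.91), KO adult (40.6 ± 2.87), KO E15.5 (13.7 ± 2.25), wt P5 (2.19 ± 1.09), wt P9 (1.81 ± 0.0233), wt E15.5 (1.22 ± 0.166) and wt adult (0.719 ± 0.387). KO P5 and KO P9 overlapped, as did wt P5 and wt P9. The other neighbours in that order did not overlap in their libraries.

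The size of the KO difference in Rp1 was not the same at all stages. The F test of the difference across the 4 stages gave an edgeR adjusted p of 0.0019. In pairs of stages, the log2 difference of P9 exceeded that of E15.5 by 1.52 ± 0.36 (edgeR adjusted p = 0.0051) and that of adult exceeded E15.5 by 2.33 ± 0.41 (0.014). The adult call was lost without E15.5 wt library 1 (2.23, edgeR adjusted p = 0.097) or without adult wt library 2 (1.93, 0.065), the adult library with 4 counts of Rp1. P5 exceeded E15.5 by 1.28 ± 0.36, which did not pass (edgeR adjusted p = 0.64), and no pair among P5, P9 and adult passed. Of all genes tested, 15.8% were called for P9 against E15.5, 0.157% for adult against E15.5 and 0.035% for P5 against E15.5, and 15.7%, 0.035% and 13.2% for P9 against P5, adult against P5 and adult against P9.

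In adults, KO library 3 held 78.2 CPM of Sox17 and KO library 2 held 22.5 CPM, while their Rp1 levels were 39.4 and 43.9 CPM. Over all 24 libraries Pearson's r between log2 CPM of Rp1 and Sox17 was -0.80, a description that mostly restates the separation of the genotypes. E15.5 was the stage with the lowest Rp1 in KO (13.7 CPM) and also that with the lowest Sox17 in wt (90.5 ± 15.4 CPM, against 277 ± 43.2 at P5, 333 ± 21.2 at P9 and 297 ± 21.8 in adults, SD, n = 3). The means of the other stages stood in a different order, with Rp1 in KO at 60.6 CPM at P5, 58.7 at P9 and 40.6 in adults. A link between these levels was not tested.

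Levels of different genes can be set side by side only per length, for which the authors' FPKM was used. The FPKM of Rp1 was 0.149 ± 0.0223 in wt and 1.67 ± 0.269 in KO at E15.5 (SD, n = 3 here and below). It was 0.227 ± 0.101 and 6.37 ± 0.452 at P5, 0.191 ± 0.000963 and 5.76 ± 0.231 at P9, and 0.0793 ± 0.0424 and 4.58 ± 0.318 in the adult. In wt it had the lowest mean of the 7 neighbours at every stage, although at P5 its spread overlapped that of Xkr4 (0.260 ± 0.0722 FPKM). In KO at P5 and P9 its mean was above those of the other 6, whose highest were Tcea1 at P5 (5.92 ± 0.852 FPKM) and Atp6v1h at P9 (4.55 ± 0.754 FPKM). Among all genes tested, the mean FPKM of Rp1 stood at the 6.25th, 11.8th, 11.0th and 4.03rd percentile in wt and at the 29.9th, 58.5th, 58.0th and 48.0th in KO.

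The level of Rp1 in KO was small beside that of the Sox17 transcript in wt. It came to 7.96% of the wt FPKM of Sox17 at E15.5, 11.4% at P5, 8.58% at P9 and 7.32% in adults. The gain of Rp1 came to 8.06%, 11.7%, 8.88% and 8.79% of the FPKM that Sox17 lost. No test was made of how that share varied between the 4 stages.

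**Figure D2:**
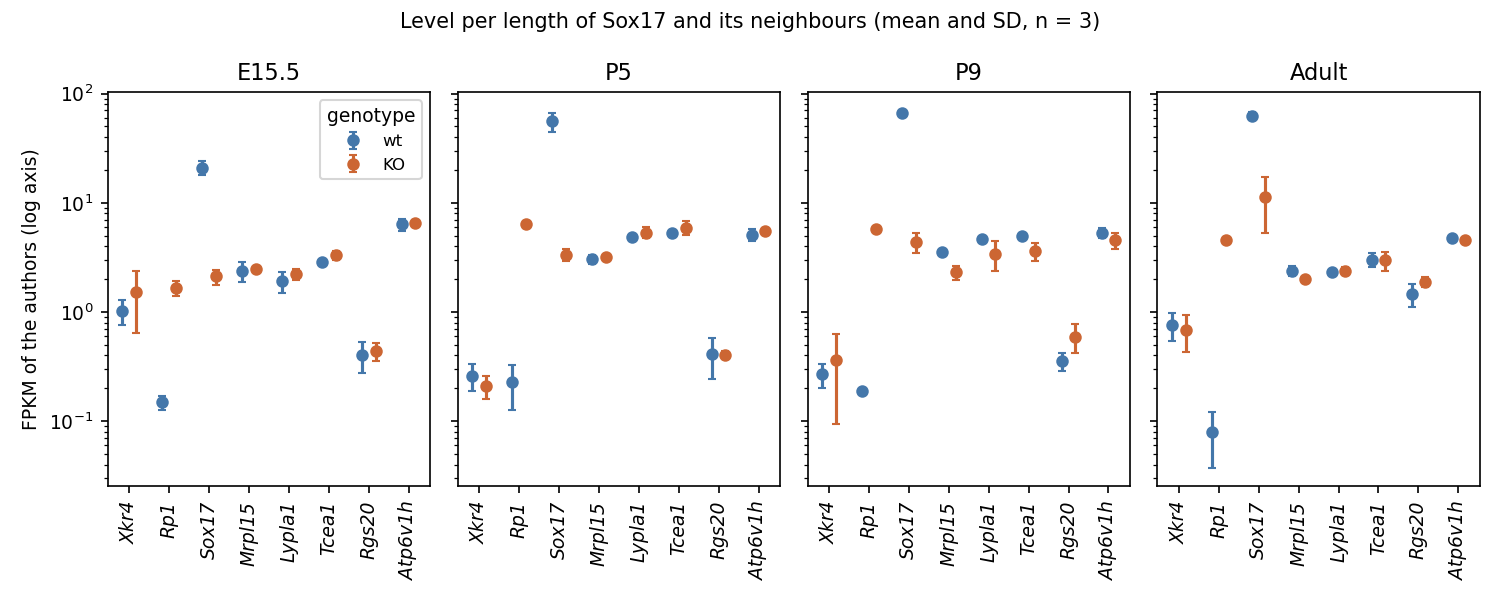
Mean and SD (n = 3) of the authors' FPKM on a log axis for Sox17 and its 7 neighbours in order along the chromosome, with wt and KO side by side at each stage. Rp1 goes from the lowest of the neighbours in wt (0.0793 to 0.227 FPKM) to the range of the more abundant neighbours in KO at P5, P9 and adult (4.58 to 6.37 FPKM).

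The Rp1 row in the deposited tables has a length of 9108 bases. That equals the union of the exons of the 3 shorter Rp1 transcript models in GENCODE M21, each with 4 exons. A longer model of Rp1 in the same annotation has 30 exons and runs for 409.7 kb, from 4409241 down to 3999557, and with it the union would be 12311 bases. Reads in exons found only in the longer model are therefore outside the Rp1 counts given here. A total per gene does not show where along Rp1 its reads lie.

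In wt endothelium Rp1 was low throughout but did not stay level. It rose from E15.5 to P5 (log2 0.86 ± 0.29, edgeR adjusted p = 0.013), a call that rested on P5 wt library 2, with 3.45 CPM (0.37 and 0.25 without it), and that was also lost in the fit of the 6 libraries alone (0.77, edgeR adjusted p = 0.11). From P9 to adult it fell by 1.34 ± 0.34 on the log2 scale (edgeR adjusted p = 0.0017). Between P5 and P9 it differed by -0.29 ± 0.28 and between adult and E15.5 by -0.76 ± 0.36, and neither passed (edgeR adjusted p = 0.61 and 0.066).

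Counts of 3 sparse rows near Rp1 were also higher in KO. All 3 lie on the minus strand like Rp1 and Sox17, and they were chosen after their values were seen, since none reached a group mean of 10 counts. The window held 32 rows that are not protein-coding, and the other untested ones are not described. The ratios, intervals and p values of these 3 rows do not allow for that choice and only describe them. Gm37483, an unverified transcript at 4363346 to 4364829, lies within an intron of Rp1 and overlaps none of its exons. It had 0, 0 and 0 counts in wt and 3, 0 and 0 in KO at E15.5, then 0, 0 and 1 against 2, 2 and 4 at P5, 0, 0 and 0 against 6, 15 and 5 at P9, and 0, 0 and 0 against 5, 4 and 0 in adults. Over all libraries it had 1 count in 12 wt libraries and 46 in 12 KO libraries, 9 of which had at least 1. Over a floor of 3 counts for the wt group, scaled for depth, KO stood at 8.90-fold at P9 and 2.81-fold in adults. Those values leave out counting error in KO and are not lower bounds. The P5 ratio was 7.90 (95% interval 1.06 to 351).

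Gm6101, a processed pseudogene at 4256234 to 4260519, begins 30.3 kb beyond the end of Rp1 as the tables define it and lies within the span of the longer Rp1 model, outside its exons. Its counts in KO were 2, 3 and 5 at E15.5, 5, 7 and 6 at P5, 2, 5 and 5 at P9, and 6, 0 and 21 in adults. In wt they were 0, 0 and 0, then 1, 1 and 0, then 1, 0 and 0, and 0, 0 and 0 in adults. The totals were 3 counts in wt and 67 in KO, and 11 of 12 KO libraries had at least 1. The ratio was 8.89 (2.13 to 79.0) at P5 and 12.3 (1.82 to 527) at P9. Over the same wt floor of 3 counts, KO stood at 2.63-fold at E15.5 and 8.44-fold in adults. Those values again leave out counting error in KO, and of the 27 adult KO counts 21 were in library 3. KO and wt did not overlap at E15.5, P5 and P9, but adult KO library 2 had 0 counts. Among the genes tested, 8.35%, 15% and 40.7% showed no overlap in CPM at E15.5, P5 and P9. Reads of a processed pseudogene can be shared with its parent gene, and how the authors placed such reads is not given in the sources used here.

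Gm37381, a long intergenic noncoding RNA at 3905739 to 3986215, lies 304.6 kb beyond the Rp1 row counted here. It lies much closer to the longer Rp1 model, whose end is at 3999557, but outside it. It had 0 counts in wt and 8 in KO over all libraries, with at most 2 in any library. In an edgeR fit without the filter on low counts (30432 genes, of which 5.65% were called for the effect averaged over stages), Gm37483 (adjusted p = 0.00013) and Gm6101 (1.9e-07) were called higher in KO and Gm37381 was not (0.16). That fit used the same counts on which the rows were chosen, so it is no independent test of them.

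**Figure D3:**
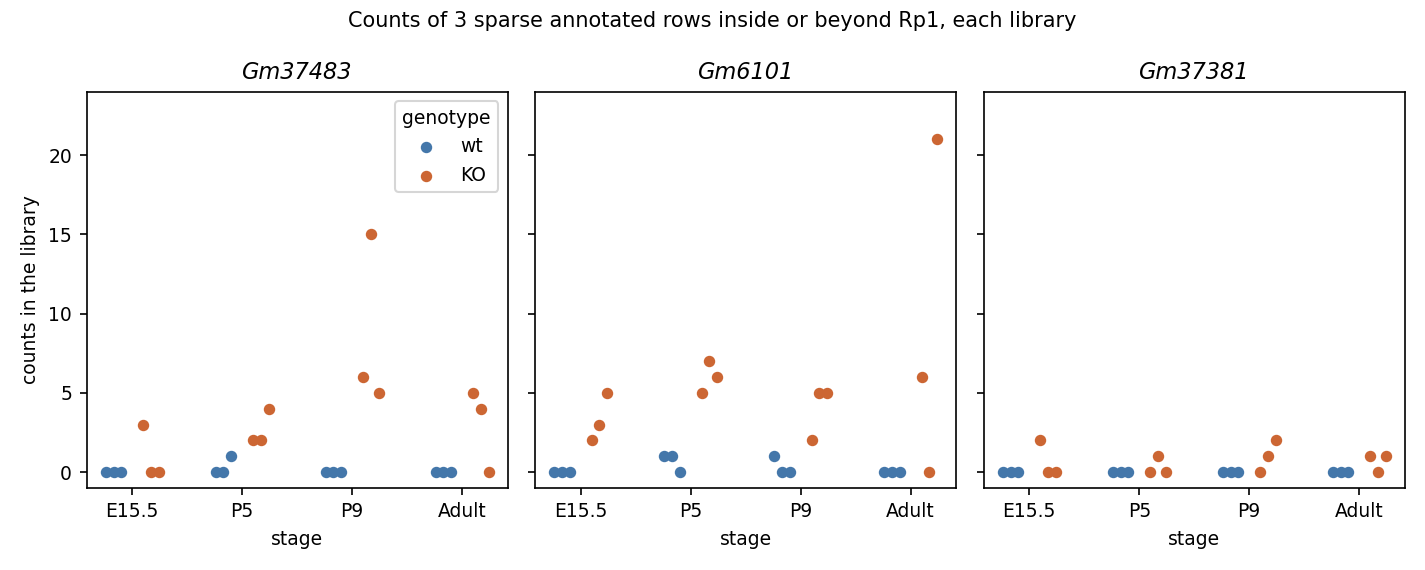
Raw counts of Gm37483, Gm6101 and Gm37381 in each library by stage; points are libraries. KO libraries reach 15, 21 and 2 counts, and no wt library has more than 1.

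Among the other tested rows of the window, none was called in the KO comparison at any stage. The shares of all genes tested that were called were 0.548%, 0.53%, 28% and 0.0874% at E15.5, P5, P9 and adult. Gm37587, a processed transcript on the plus strand that overlaps the start of Sox17, was not called at any stage (log2 -0.10 to 0.37, edgeR adjusted p = 0.89 to 1). Gm7357, a processed pseudogene 25.6 kb upstream on the plus strand, was lower in KO at P9 by -0.81 ± 0.31, short of the threshold (edgeR adjusted p = 0.057). Gm37323, a long intergenic noncoding RNA 85.8 kb upstream on the minus strand, had 1, 1 and 0 counts in adult wt and 16, 12 and 8 in adult KO. Its adult ratio was 16.9 (95% interval 4.34 to 145), yet the edgeR adjusted p was 0.15. Gm37323 passed the filter on low counts only through adult KO, the group in which it was high. The adult ratio and its interval do not allow for that and only describe the row. At P5 and P9 Gm37323 had at most 2 counts in any library. Gm19938, within an intron of Xkr4, and Gm37144, within Mrpl15, were not called at any stage.

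The other 6 neighbours showed no such change at E15.5, P5 or in adults. Only Rp1 was called among the 7 at E15.5, where 0.548% of all genes tested were called, at P5 (0.53%) and in adults (0.0874%). The log2 fold changes of the other 6 lay between 0.04 and 0.57 at E15.5, between -0.30 and 0.17 at P5 and between -0.27 and 0.34 in adults, and their edgeR adjusted p values were 0.87 or above. Of all genes tested, 2 were called higher at all 4 stages (0.0117%), Rp1 and Esr1.

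**Figure D4:**
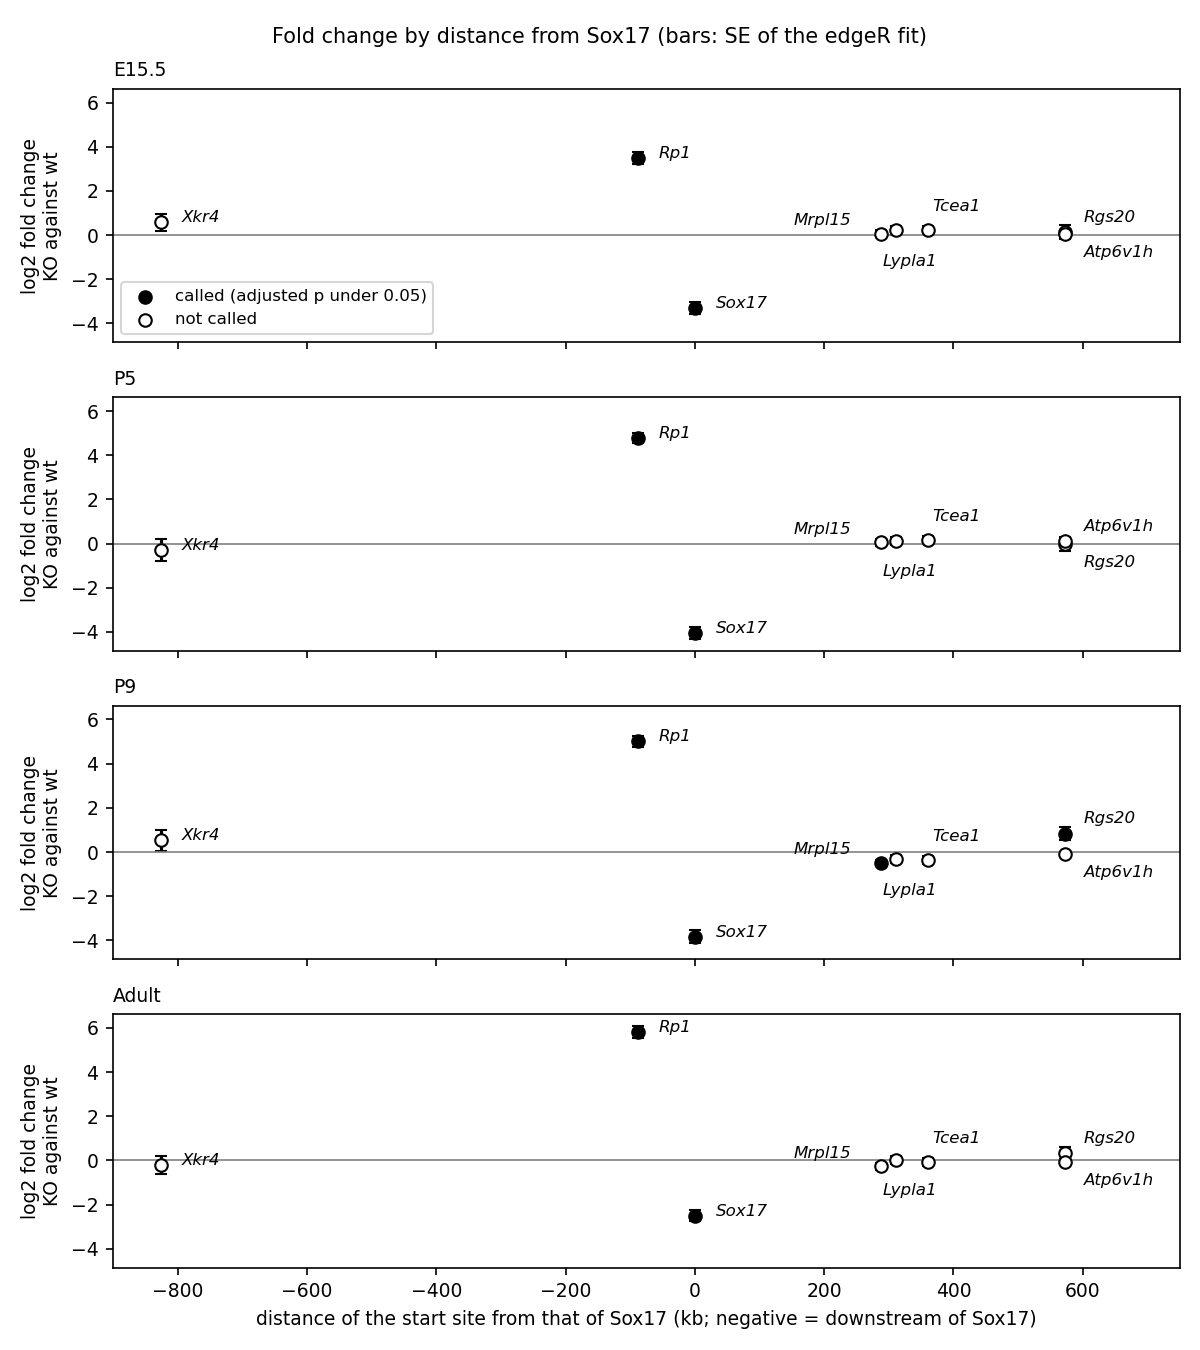
Fitted log2 fold change, KO against wt, with its SE, for Sox17 and its 7 neighbours against the distance between their start sites and that of Sox17 in kb, 1 panel per stage. Filled points were called by edgeR. Rp1 stands at 3.49 to 5.82, whereas every other neighbour lies between -0.49 and 0.83.

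Mrpl15, the neighbour 275.9 kb upstream, fell at P9. Its libraries held 30.5, 31.2 and 31.3 CPM in wt and 23.0, 25.7 and 17.8 CPM in KO at P9, so the groups did not overlap. At that stage 40.7% of all genes tested showed no overlap. The log2 change was -0.49 ± 0.15 (edgeR adjusted p = 0.015), and without P9 KO library 3 it was -0.36 and no longer passed (0.087). In adults the groups also did not overlap, at 17.5, 21.5 and 21.1 CPM in wt and 15.99, 16.6 and 17.3 in KO, but the difference of -0.27 ± 0.15 did not pass. The share of all genes tested without overlap in adults was 10.9%. At E15.5 and P5 the groups overlapped, with differences of 0.07 ± 0.15 and 0.05 ± 0.14.

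Rgs20 rose at P9, from 1.31, 1.87 and 1.50 CPM in wt to 3.79, 2.49 and 2.19 CPM in KO. Those groups did not overlap, as in 40.7% of all genes tested, and the log2 change was 0.83 ± 0.30 (edgeR adjusted p = 0.043). These were 20 to 45 counts per library, and the call was lost without P9 wt library 1 (0.71, adjusted p = 0.15), P9 wt library 3 (0.80, 0.10) or P9 KO library 1 (0.56, 0.22), and in the edgeR fits without the low-count filter (0.077) and of the 6 libraries alone (0.095). In adults Rgs20 stood at 4.48, 6.78 and 7.22 CPM in wt and 6.87, 8.31 and 8.31 in KO, overlapping groups with a difference of 0.34 ± 0.26.

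With Rp1 at 5.01, 3 of the 7 neighbours were thus called at P9, 2 higher and 1 lower, where 28% of all genes tested were called, 13.5% higher and 14.6% lower. The median log2 change of the other 6 was -0.22, beside 0.02 over all genes tested. Marker genes of other cells also moved with genotype at P9. Of 7 astrocyte markers 5 rose, of 6 pericyte markers 3 fell, of 4 fibroblast markers 4 fell, and of 3 tested smooth muscle markers 2 fell. Of 10 endothelial markers 4 rose and 2 fell. The summed pericyte level was 2544 to 3527 CPM in wt and 656 to 1659 in KO, that of smooth muscle markers 21.7 to 26.4 in wt and 7.24 to 14.1 in KO, and that of astrocyte markers 541 to 620 in wt and 848 to 1269 in KO, while the 10 endothelial markers summed to 14290 to 14760 in wt and 15550 to 19460 in KO. Their part in the changes of Mrpl15 and Rgs20 was not tested.

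Xkr4 was not called at any stage, and 2 libraries set its spread. At E15.5 it stood at 5.28, 4.23 and 7.43 CPM in wt and 5.76, 5.22 and 14.3 in KO. At P9 it stood at 1.24, 1.87 and 1.999 CPM in wt and 1.60, 1.28 and 4.38 in KO. In each case KO library 3 was the highest of the 6 and the rest overlapped. The log2 difference was 0.57 ± 0.39 at E15.5 and -0.05 without that library, and 0.53 ± 0.46 at P9 and -0.27 without it. The 9 neuron markers summed to 209 to 474 CPM in P9 KO and to 235 to 263 CPM in P9 wt. None of them was called at P9, where 28% of all genes tested were. At P5 Xkr4 stood at 1.21 to 1.98 CPM in wt and 1.01 to 1.67 in KO, and in adults at 3.12 to 5.69 and 2.82 to 5.80.

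Lypla1 and Tcea1, 2 adjacent genes on the plus strand, varied in parallel across the 24 libraries (r of log2 CPM 0.92), a pattern set mostly by stage. Lypla1 at P9 held 36.5, 34.7 and 32.1 CPM in wt and 32.8, 32.6 and 17.2 in KO. Its difference of -0.33 ± 0.18 did not pass (edgeR adjusted p = 0.19), and P9 KO library 3 was the lowest by a wide margin. Tcea1 at P9 held 14.6, 16.9 and 15.0 CPM in wt and 12.8, 14.5 and 9.27 in KO. The groups did not overlap, as in 40.7% of all genes tested, yet the difference of -0.35 ± 0.18 did not pass (edgeR adjusted p = 0.15). At E15.5 the Tcea1 groups also did not overlap, at 7.49 to 8.14 CPM in wt and 8.16 to 10.3 in KO, with a difference of 0.22 ± 0.18 (edgeR adjusted p = 1). A lack of overlap was seen in 8.35% of all genes tested at E15.5.

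Atp6v1h was not called at any stage. At P9 it held 48.4, 56.1 and 57.2 CPM in wt and 52.2, 58.6 and 39.0 in KO, with library 3 again the lowest. Its averaged log2 difference was -0.01 ± 0.07, with a 95% interval of -0.15 to 0.13, and at no single stage did the interval reach beyond -0.40 or 0.40. For the averaged effect, where 8.67% of genes were called, 1 of the 7 was called, Rp1. The intervals of the other 5 were -0.32 to 0.62 for Xkr4, -0.31 to -0.002 for Mrpl15, -0.19 to 0.20 for Lypla1, -0.19 to 0.19 for Tcea1 and 0.01 to 0.64 for Rgs20. For the difference between stages, where 13.5% were called, Rp1 was again the 1 of 7.

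**Figure D5:**
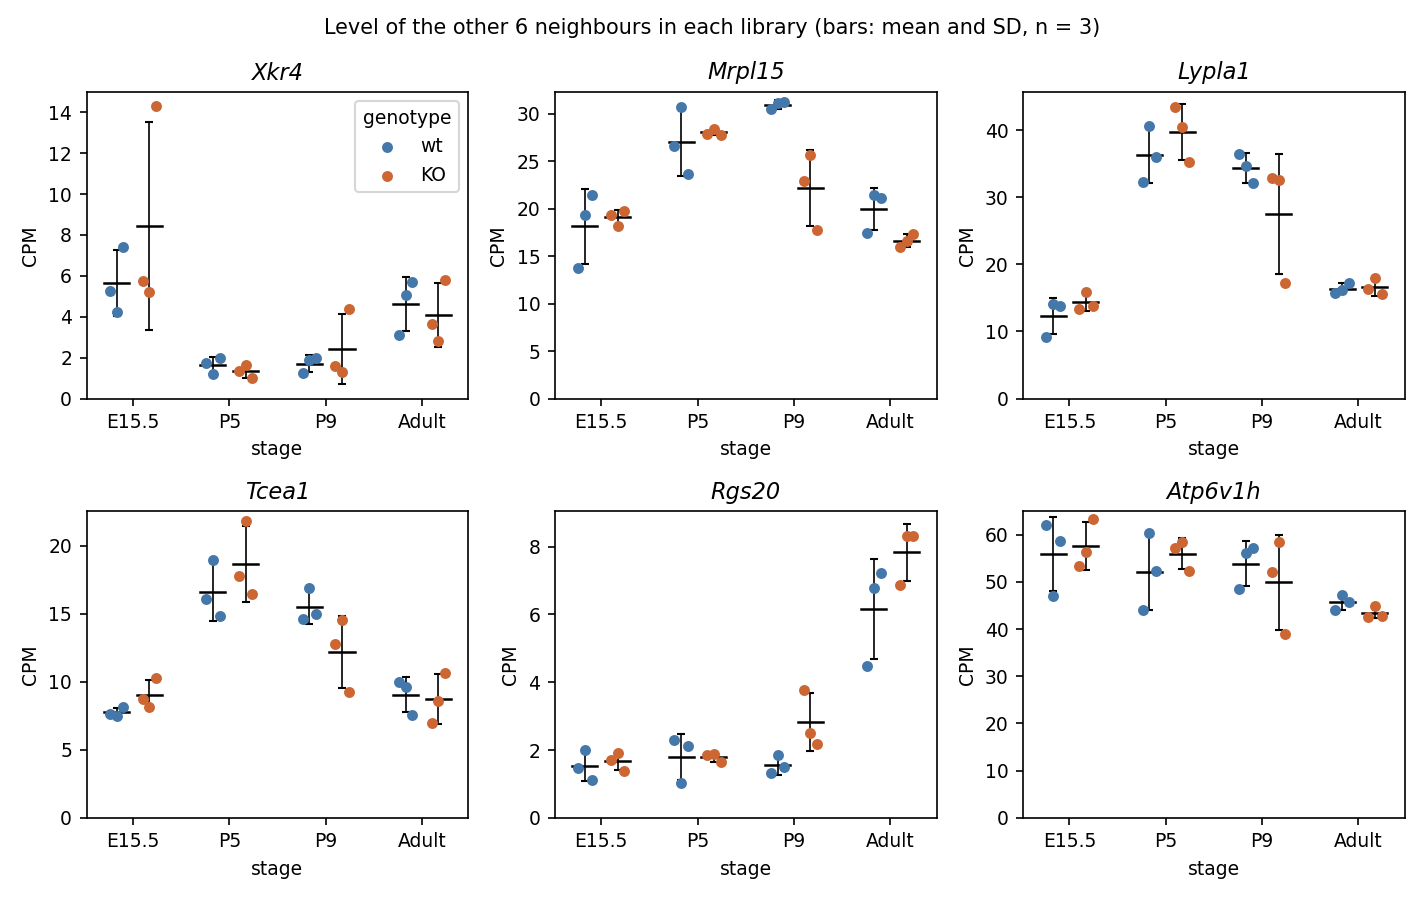
CPM of the other 6 neighbours in each library by stage, on axes from 0; points are libraries, and bars give the mean and SD of 3. At P9, wt and KO do not overlap for Mrpl15 and Tcea1 (lower in KO) and Rgs20 (higher in KO). Nor do they for Mrpl15 in adults (lower in KO) and Tcea1 at E15.5 (higher in KO). Elsewhere they overlap.

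Of the 23 tested genes of chromosome 1 that lie 1 to 10 Mb from Sox17, 0 were called at E15.5, P5 or adult and 7 were called at P9, 2 higher and 5 lower. Over all genes tested the shares called were 0.548%, 0.53%, 28% and 0.0874% at E15.5, P5, P9 and adult. Among the 865 beyond 10 Mb the share called at P9 was 31.5%. The next protein-coding genes past the window were Oprk1, an opioid receptor, Npbwr1, a neuropeptide receptor, and Rb1cc1, an autophagy initiation factor 1708.8 kb upstream. Oprk1 was not called and Npbwr1 had too few counts to be tested. Rb1cc1 rose at P9 (log2 0.48 ± 0.16, edgeR adjusted p = 0.026) and lost that call without P9 wt library 1 or 3 or P9 KO library 1 or 2 (edgeR adjusted p = 0.05 to 0.12).

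The wt stages were compared in the same way, and the members' share of calls is read beside that of all genes. From wt E15.5 to wt P5, 5 of the 7 were called, near the share of all genes (66.6%). Lypla1 rose by 1.55 ± 0.19 (edgeR adjusted p = 1.7e-07), from 9.23, 14.0 and 13.8 CPM to 32.3, 40.6 and 36.0 CPM. Tcea1 rose by 1.10 ± 0.18 and Mrpl15 by 0.57 ± 0.15, and Xkr4 fell by 1.78 ± 0.44, from 4.23 to 7.43 CPM to 1.21 to 1.98 CPM. From P5 to P9, 0 of 7 were called, also at an unadjusted p under 0.05, where 5.12% of genes were called by edgeR; DESeq2 and limma-trend also called 0.

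From wt P9 to wt adult, 6 of the 7 were called, where 61.1% of all genes were. Rgs20 rose by 1.97 ± 0.29 (edgeR adjusted p = 3.7e-06), to between 4.48 and 7.22 CPM, and Xkr4 by 1.44 ± 0.45. Lypla1 fell by 1.07 ± 0.19, Tcea1 by 0.78 ± 0.18 and Mrpl15 by 0.63 ± 0.15, beside the fall of Rp1. The wt P5 and wt P9 libraries each enter more than 1 of these comparisons. Between adult and E15.5 wt, where 69.6% were called, Rgs20 was the 1 of 7 called (2.01 ± 0.29), and Lypla1, Tcea1, Mrpl15 and Xkr4 differed by 0.40, 0.22, 0.14 and -0.29 and did not pass. That count was 3 under DESeq2 size factors, DESeq2, limma-trend and no filter and without E15.5 wt library 2, and 2 with the replicate block or without adult wt library 1 or 3, with Rp1, Lypla1 or Atp6v1h added. In the fraction itself, the 9 neuron markers summed to 1592 to 1938 CPM in wt E15.5 and 232 to 380 in wt P5, and the 7 oligodendrocyte markers to 1045 to 1924 in wt P9 and 21440 to 25960 in wt adult. The part of other cells in these stage differences was not tested.

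Of 25 photoreceptor genes on the list 9 were tested, and 0 were called by edgeR at E15.5, P5 or adult. At these stages 0.548%, 0.53% and 0.0874% of all genes tested were called. At P9, 2 of 9 rose, where 28% of all genes were called, Impdh1 (0.37 ± 0.10), an enzyme of guanine nucleotide synthesis that many cells use, and Arr3 (4.96 ± 1.83), cone arrestin, at a group mean of at most 10.3 counts. Impdh1 lost its call without P9 KO library 2 and in the fit of the 6 libraries alone (edgeR adjusted p = 0.097 and 0.081), and Arr3 lost it without any 1 wt library (0.099 to 0.11) or KO library 2 (0.19), under limma-trend and with a replicate block (0.093 for both). The median log2 change of the 9 was -0.33 at E15.5, 0.07 at P5, 0.06 at P9 and 0.04 in adults, beside 0.01, -0.002, 0.02 and 0.01 over all genes. Among the defining photoreceptor markers, the highest count in any library was 318 for Gnat1, 44 for Sag, 17 for Crx, 13 for Rcvrn, 7 for Nrl and 5 for Pde6b. Rp1l1, the closest relative of Rp1, did not reach the count needed for testing.

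The doublecortin family, to which Rp1 belongs, had 8 of 9 members tested. At E15.5, P5 and adult, Rp1 was the 1 member called, beside 0.548%, 0.53% and 0.0874% of all genes tested. At P9 4 of the 8 were called, where 28% of all genes were. Beside Rp1, Dclk1, a microtubule-associated kinase, rose by 0.77 ± 0.21 and Dclk2 by 0.58 ± 0.17, and Dcdc2c fell by 2.46 ± 0.68. Dclk1 lost its call without P9 wt library 1 or P9 KO library 3 (edgeR adjusted p = 0.05 and 0.084), and Dcdc2c without P9 wt library 1 (0.051). Dcx, the neuronal founder of the family, did not pass at P9 (0.59 ± 0.27, edgeR adjusted p = 0.11). No member but Rp1 was called for the averaged effect, where 8.67% of all genes tested were called.

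In the families of the other neighbours, 0 genes were called by edgeR in the KO comparisons at E15.5, P5 or adult. The shares of all genes tested were 0.548%, 0.53% and 0.0874% at these stages. At P9 the calls below stand beside 28% of all genes called, 13.5% higher and 14.6% lower. Of 47 tested proteins of the large mitochondrial ribosome subunit, 19 fell at P9 and 0 rose, among them Mrpl15 itself, Mrpl42 (-0.67 ± 0.11) and Mrpl17 (-0.65 ± 0.12), and the median change was -0.31 beside 0.02 over all genes. Of 18 tested RGS genes 3 rose, among them Rgs12 (1.02 ± 0.09), and 4 fell, among them Rgs2 (-1.36 ± 0.17) and Rgs5 (-1.70 ± 0.31), which is also on the pericyte marker list. Rgs19, a close relative of Rgs20, fell by 0.40 ± 0.12 (edgeR adjusted p = 0.016). Among 9 acyl-protein thioesterases 4 fell, among them the lysosomal enzyme Ppt1 (-0.36 ± 0.11), and Lypla2 was not called (-0.06 ± 0.13). Of 21 elongation factors 2 rose and 4 fell, including the kinase Cdk9 (0.45 ± 0.09) and the histone chaperone subunit Ssrp1 (-0.53 ± 0.10), while Tcea2 and Tcea3 did not pass. Of 7 XK-related genes Xkr5 fell (-2.07 ± 0.32), and of 19 V-ATPase subunits Atp6v0a1 rose (0.61 ± 0.09). For the effect averaged over stages, where 8.67% of all genes were called, Mrpl12 (-0.23 ± 0.07), Abhd17a (-0.22 ± 0.05), Rgs2 (-0.35 ± 0.08) and Rgs5 (-0.50 ± 0.15) fell and Rgs12 rose (0.26 ± 0.04).

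The gene most like Rp1 over the 24 libraries was Esr1 (r of log2 CPM 0.94), the estrogen receptor gene, whose ligand-binding part in modified form is fused to Cre in CreERT2. Esr1 was higher in KO by 5.33, 4.34, 4.67 and 3.66 log2 units at E15.5, P5, P9 and adult. Next came Eda2r (0.75), a receptor of the tumour necrosis factor receptor family, the noncoding RNA Trp53cor1 (0.71), the small nucleolar RNA Snord14a (0.69) and the scavenger receptor gene Marco (0.67). These are descriptions over libraries that share 8 group means. The closest partners of the other neighbours were Bicd1 and Ank3 for Xkr4 (0.94 for both), Stx8 and St13 for Mrpl15 (0.93 for both), Atg5 and Dstn for Lypla1 (0.98 and 0.97), Cyfip1 and Dek for Tcea1 (0.96 for both), Ttyh1 and Appl2 for Rgs20 (0.97 and 0.96), and Ogfr and Smc3 for Atp6v1h (0.86 and 0.85). None of these 12 partners lies on chromosome 1. Marco does, outside the window, and its counts were few. Its 3 libraries per group summed to 2, 8, 3 and 0 counts in wt at E15.5, P5, P9 and adult. In KO they summed to 25, 59, 76 and 0.

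At E15.5 another marker list moved with genotype. All 5 red cell markers fell, where 0.548% of all genes tested were called, and their summed level was 2568 to 3456 CPM in wt and 525 to 820 in KO. At P5, P9 and adult, 0 of the 5 were called, beside 0.53%, 28% and 0.0874% of all genes tested. Their part in the E15.5 values of Rp1 was not tested.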

How the data were processed

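Strand-specific poly(A) libraries were read from 24 samples, 3 in each of 8 groups. The forward-strand read counts per gene were deposited as whole numbers by the authors, with STAR 2.5.3a, SAMtools 1.5, Trim Galore 0.4.1, FastQC and build mm10 named in the submitters' processing notes. The annotation release is not given in the sources used here. The authors' FPKM equals those counts divided by the tabled gene length and the library total, on the usual FPKM scale, and was used for levels across genes. The authors' TPM was read and enters no result.

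Counts were fitted with edgeR 4.0.16 (R 4.3.3): genes whose mean count reached 10 in any group, TMM scaling, 1 mean per group over all 24 libraries (16 residual degrees of freedom) and the quasi-likelihood test with Benjamini-Hochberg adjustment. The fit was tested on simulated data. Alternatives were DESeq2 size factors, DESeq2 1.42.0, robust limma-trend (limma 3.58.1), no filter, a replicate block, the compared libraries alone and leaving out each library. Counts differed between replicates beyond sampling noise in every pair (chi-square per degree of freedom 4.98 to 58.1). Intervals are 95% and cover counting error only where they are on ratios of counts. Other genes named are the rows of the window that were tested, up to 3 called members of each listed family with the smallest adjusted p, the 3 nearest protein-coding genes past the window, and the closest patterns (5 for Rp1, 2 for each other member). Dclk2, Dcx, Rgs19, Lypla2, Tcea2 and Tcea3 were named after their values were seen. The members and lists were chosen with earlier results of these data known.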

Additional observations from a re-analysis of the deposited data

Results flagged for a closer look

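The KO difference varied between stages for Rp1 and for Sox17 by the F test over the 4 stages (edgeR adjusted p = 0.0019 and 0.012). For Rp1 the log2 difference was 3.49 at E15.5, 4.77 at P5, 5.01 at P9 and 5.82 in adults, higher in 3 of 3 KO libraries at each stage. For Sox17 it was -3.31, -4.06, -3.83 and -2.50, lower in 3 of 3, and robust limma-trend gave an adjusted p of 0.084. The stages also differ in tamoxifen schedule and dissociation kit, which cannot be told apart from age.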

How the results depend on the processing

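Rp1 was called at every stage under all alternatives, with log2 changes of 3.36 to 3.49 (E15.5), 4.76 to 4.82 (stage P5), 4.93 to 5.08 (stage P9) and 5.72 to 5.82 (adult), and of 3.37 to 3.61, 4.57 to 5.27, 4.98 to 5.02 and 5.42 to 6.11 when single libraries were left out. For wt adult against wt E15.5 the count of neighbours called moved from 1 to 3 under DESeq2 size factors, DESeq2, limma-trend and no filter, to 2 with the replicate block, and between 1 and 3 when a library was left out. The other reversals concern differences that were not called. Rgs20 at P5 went from -0.01 to 0.06 under limma-trend and to 0.02 with the replicate block, and the averaged Tcea1 difference became 0 under DESeq2 size factors and under DESeq2. When single libraries were left out, the E15.5 differences ranged from -0.05 to 0.83 for Xkr4, -0.09 to 0.20 for Mrpl15, -0.05 to 0.39 for Rgs20 and -0.07 to 0.12 for Atp6v1h. At P5 they ranged from -0.03 to 0.16 for Mrpl15, -0.29 to 0.19 for Rgs20 and -0.01 to 0.22 for Atp6v1h, and at P9 from -0.27 to 0.84 for Xkr4 and -0.26 to 0.03 for Atp6v1h. In adults they ranged from -0.52 to 0.01 for Xkr4, -0.04 to 0.06 for Lypla1 and -0.22 to 0.09 for Tcea1. Averaged over stages they ranged from -0.05 to 0.23 for Xkr4, -0.03 to 0.07 for Lypla1, -0.04 to 0.04 for Tcea1 and -0.04 to 0.03 for Atp6v1h. For wt P5 against E15.5 Atp6v1h ranged from -0.21 to 0.01. For wt P9 against P5 the ranges were -0.12 to 0.24 for Xkr4, -0.49 to 0.21 for Rp1, -0.15 to 0.01 for Lypla1, -0.17 to 0.01 for Tcea1, -0.48 to 0.00 for Rgs20 and -0.06 to 0.16 for Atp6v1h. Mrpl15 ranged from -0.02 to 0.27 for wt adult against E15.5, and the P9 minus P5 interaction of Rp1 from -0.27 to 0.45. The cause of these shifts was not tested. Over all genes, the calls at E15.5, P5 and adult were 94, 91 and 15, and became 148, 162 and 36 with DESeq2, 212, 322 and 69 with no filter, and 16, 198 and 40 with the 6 libraries alone. For wt P9 against P5, 879 calls became 1579 with no filter and 2072 with 6 libraries alone. Whether replicate numbers pair the samples is not settled by the deviations of same-numbered libraries, which correlated at -0.081 to 0.486. Of 12 pairs 2 exceeded 0.1, both at E15.5 (0.368 for number 2 and 0.486 for number 3). There, wt 2 with KO 3 and wt 3 with KO 2 correlated at -0.472 and -0.368. Over all stages, 14 of 24 libraries correlated best with their own number. With the replicate block Rp1 was at 3.48, 4.82, 5.01 and 5.82, and all-gene calls at E15.5, P5, P9 and adult were 88, 119, 4945 and 16, against 4809 at P9 without it. Depth limits the wt values of Rp1, at 4 to 57 counts per library.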
